A study of Homo sapiens with 9 samples.

Results

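Open chromatin around MYC was measured by ATAC-seq in 22Rv1, a line grown from a human prostate carcinoma. ATAC-seq marks accessible DNA by transposase insertion. The members were chosen by position alone: peaks from 9 libraries, each with its own list, were joined into 1 region wherever they had 1 bp in common, and the 76 regions overlapping chr8:127800000-129250000 (hg19) were kept, of 128994 regions in all. The groups were WX-02-23 (20 µM), WX-02-43 (20 µM) and DMSO (0.1%, the vehicle), each given for 3 h, with 3 libraries per group. Every group carried the same gene edit, C1111S in the splicing factor SF3B1, so the unedited line is not part of any comparison. Whether the edited cells are 1 clone, and whether replicates were separate cultures, is not given in the sources used here. Spread between replicates, and with it every p-value below, may therefore be technical only. WX-02-23 and WX-02-43 are named in the labels as stereoprobes, in a series on covalent redirection of FOXA1, a pioneer factor that opens prostate enhancers.

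MYC encodes a transcription factor that drives growth and division, and its gene sits in a long stretch with few other protein-coding genes. Enhancers scattered over this stretch contact the MYC promoter, and inherited variants within it are tied to prostate cancer risk. In RefSeq the named genes run in the order PCAT1, POU5F1B, MYC and PVT1. PCAT1 is a long noncoding RNA gene first described in prostate cancer, POU5F1B is a retrogene related to the stem cell factor gene POU5F1, and PVT1 is a long noncoding RNA gene whose promoter and enhancers are known to affect MYC. MYC was placed by an approximate interval, 128748000 to 128754000, with rounded ends that are not the annotated ends of the gene. In positions and captions below, MYC stands for that interval. The other genes were not placed against the regions for want of an annotation of this build. "Before MYC" below is the side of PCAT1 and POU5F1B, "after MYC" is the side of PVT1, and distances run from the first base of that MYC interval to a region's centre.

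The window held 52.4 regions per Mb, against 41.7 on the rest of chromosome 8 and 43.8 over all chromosomes, with no test made of these densities. Chromosome lengths ran from first to last region. They include any stretch where no peak can be called, which can lower the latter densities. All 9 libraries shared 34 of the 76 regions (44.7%), close to 46.2% of all regions, and 14 (18.4%) had a peak in a single library. Regions shared by all had a median fold enrichment of 8.36, which is the summit pileup over the local background as the authors' peak caller gave it, and a median width of 599.5 bp. Over all chromosomes, shared regions had 8.82 and 621 bp. Regions with a peak in a single library were weak and short, with medians of 4.58 for fold and 160.5 bp for width. The regions nearest the edges lay 7.6 kb outside and 17.2 kb inside at the low end, and 31.8 kb outside and 39.9 kb inside at the high end.

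Before MYC, 49 regions filled 948 kb and 18 of them (36.7%) were held by all libraries. After MYC, 25 regions filled 496 kb and 14 of them (56%) were held by all. Density was thus alike on both sides, 5.17 and 5.04 regions per 100 kb, while the share held by all libraries was higher after MYC, without a test. The widest empty stretch measured 119 kb and lay after MYC, between 128981881 and 129100899. The next, of 87.7 kb, lay before MYC from 128114276 to 128201969, and the median gap was 9.13 kb.

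**Figure D1:**
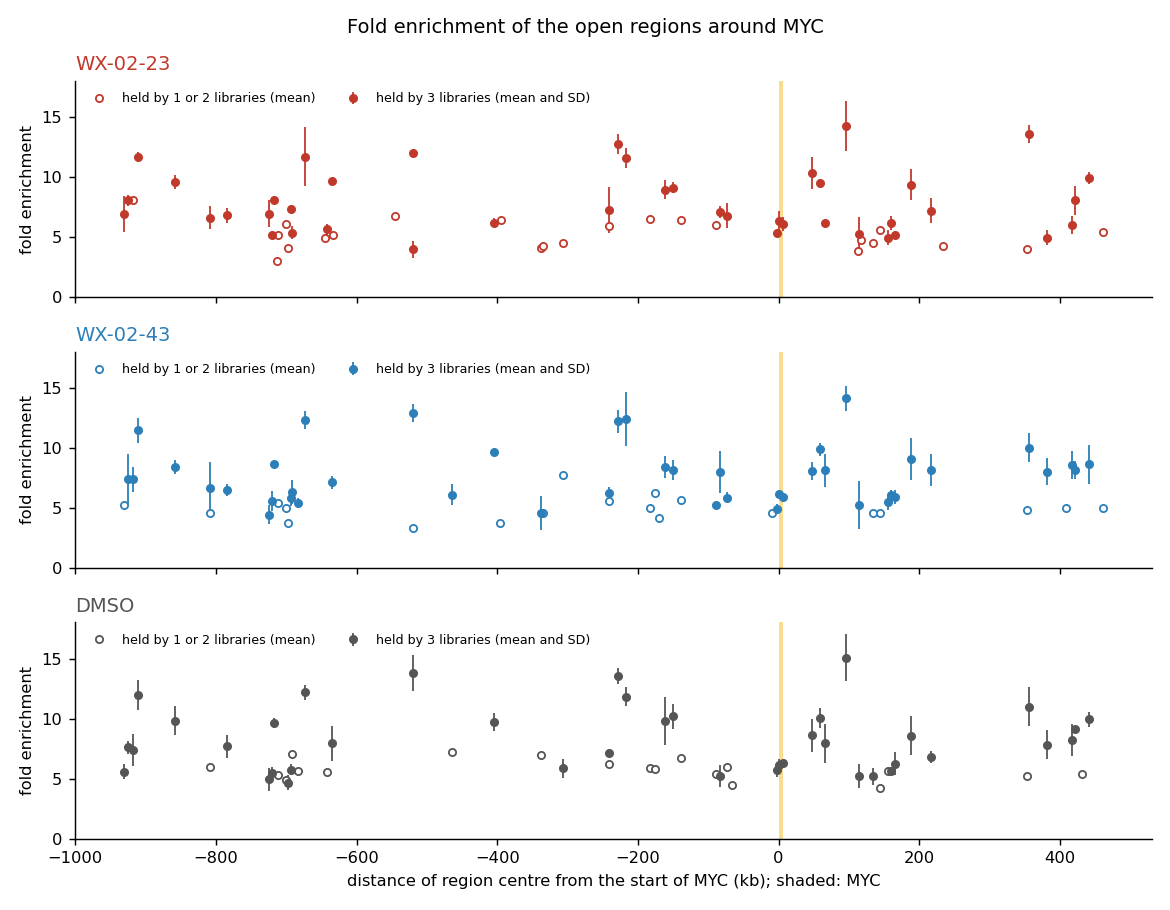
Mean fold enrichment of each region in the window (vertical axis) by the distance of its centre from the start of MYC in kb (horizontal axis), for WX-02-23, WX-02-43 and DMSO. Filled points are regions held by all 3 libraries of the group, with SD bars, open points regions held by 1 or 2 libraries, and the strip marks MYC; the highest region, 96.1 kb after the start of MYC, stood at the top in each group.

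A merged region held by all 9 libraries lay over each end of the rounded MYC interval. The one over the interval's first base, chr8:128747424-128748781, was the widest in the window at 1358 bp, and its summits in the 9 libraries fell within 18 bp of each other. In DMSO replicate 1 it held 2 separate peaks, 128747740-128747952 and 128748026-128748643, with a gap over that rounded coordinate. Whether the annotated start of MYC lay in either peak was not determined. Its fold enrichment was 5.5, 6.88 and 6.80 in WX-02-23, 6.13, 6.06 and 6.40 in WX-02-43, and 6.50, 5.57 and 6.36 in DMSO. The groups overlapped, with means of 6.39 ± 0.77 in WX-02-23, 6.20 ± 0.18 in WX-02-43 and 6.14 ± 0.50 in DMSO (SD, n = 3 each). The region over the other end of the interval, chr8:128753806-128754721, averaged 6.12 ± 0.61 in WX-02-23, 5.94 ± 0.35 in WX-02-43 and 6.27 ± 0.33 in DMSO (SD, n = 3 each). Its groups overlapped as well, so neither of these regions set the treatments apart on this measure.

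The moderate folds at MYC stood on many reads. Fold and p-value together give the number of fragments stacked at a summit and the local background behind it. In the region over the first base of the MYC interval the summit held 84, 82 and 85 fragments in WX-02-23, 70, 83 and 92 in WX-02-43, and 75, 78 and 92 in DMSO. The local background there was 10.6 to 14.4 fragments. Over the whole genome the commonest background was 1.0 to 1.41 fragments per library, and its median over the 34 shared regions of the window was 2.58. A fold at MYC is therefore measured against a background far above that of most regions named here, and it is not comparable in level with theirs. The region 1.6 kb before MYC, chr8:128746212-128746646, shared this background, at 9.96 to 13.3 fragments. Its fold was 5.39, 5.37 and 5.41 in WX-02-23, 5.38, 4.81 and 4.56 in WX-02-43, and 5.98, 6.11 and 5.05 in DMSO, and the groups overlapped in each pair. By −log10 q the same region lay lower in all WX-02-43 libraries than in every WX-02-23 and every DMSO library.

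**Figure D2:**
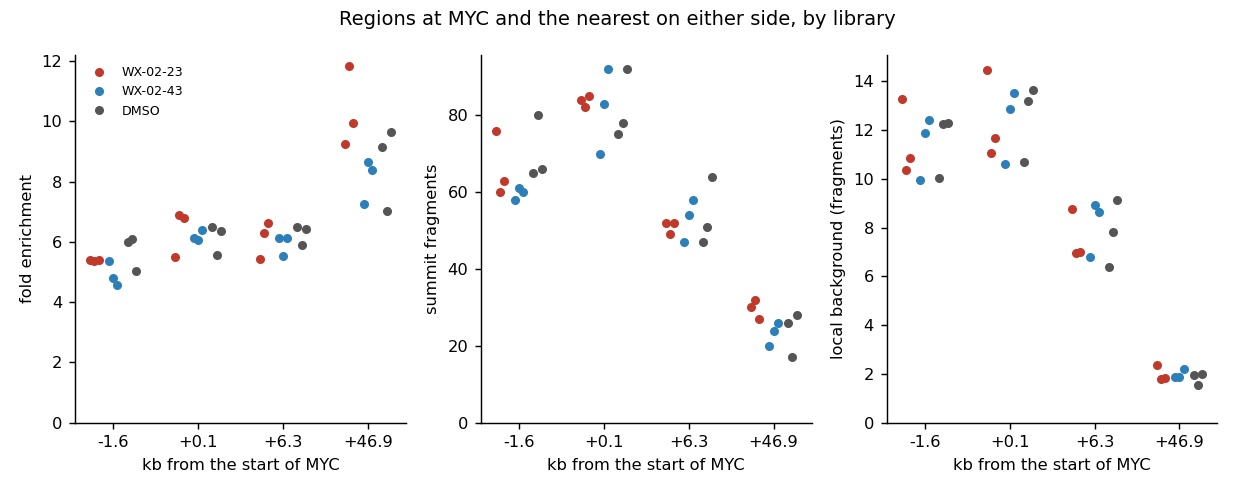
Fold enrichment, summit fragments and local background in fragments (vertical axes) of the regions at MYC and the nearest region on either side, labelled by kb from the start of MYC. Each point is 1 library, coloured by group; at MYC itself the groups overlap in all panels, and the local background there is several times that of the region 46.9 kb after its start.

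Most of the strongest regions of the window had folds that overlapped between groups. The highest mean fold, 14.5 ± 1.60 (SD, n = 9), belonged to chr8:128843833-128844373, 96.1 kb after the start of MYC. It measured 16.2, 14.6 and 12 in WX-02-23, 13.0, 14.9 and 14.5 in WX-02-43, and 13.6, 14.3 and 17.3 in DMSO, so that the groups overlapped throughout. Next came chr8:128227224-128227902 before MYC, at 12.9 ± 1.17, and chr8:128519552-128520539, at 12.8 ± 0.91 (SD, n = 9 each). The remaining 5 of the 8 strongest shared regions averaged 9.82 to 12.1. They comprised chr8:128074354-128075298, chr8:128531222-128532013 and chr8:127836616-127837421 before MYC, and chr8:129103226-129103706 and chr8:128806075-128807245 after it. That last region, 58.7 kb after the start of MYC and 1171 bp wide, was among the 3 widest and averaged 9.51 ± 0.38 in WX-02-23, 9.87 ± 0.57 in WX-02-43 and 10.1 ± 0.81 in DMSO (SD, n = 3 each). Of these 8, the regions starting at 128227224 and 129103226 had groups whose folds did not overlap. WX-02-23 lay below DMSO at 128227224 and above it at 129103226. Of all regions compared between these groups, 7.71% were higher and 7.77% lower with WX-02-23. A count over 8 regions is too small to set against these shares. The region starting at 128227224 measured 11.7, 11.9 and 12.25 in WX-02-23, below DMSO at 13.9, 12.29 and 15.3. WX-02-23 replicate 3 was thus barely below DMSO replicate 2, and WX-02-43 at 13.1, 12.1 and 13.5 overlapped both groups. By −log10 q, and with each fold divided by its library's median over the regions held by all 9 libraries, WX-02-23 overlapped DMSO there. By summit fragments divided in the same way, every WX-02-23 library lay below every DMSO library.

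Over the window as a whole, the amount of called open chromatin did not differ detectably between treatments. Libraries had 64, 51 and 58 peaks there in WX-02-23, 53, 58 and 62 in WX-02-43, and 51, 50 and 60 in DMSO. WX-02-23 and WX-02-43 each averaged 57.7 peaks (SD 6.51 and 4.51), against 53.7 ± 5.51 in DMSO (n = 3 each). The difference from DMSO was 4 peaks for both compounds, with 90% intervals from -9 to 14 for WX-02-23 (two-sided exact permutation p = 0.6) and from -7 to 12 for WX-02-43 (exact p = 0.4). WX-02-23 minus WX-02-43 was 0, with an interval from -11 to 11 (exact p = 1). The length covered was 22.4 ± 2.51 kb in WX-02-23, 22.2 ± 2.52 kb in WX-02-43 and 21.8 ± 3.31 kb in DMSO (SD, n = 3 each), and its 3 differences gave exact p of 0.7 to 0.8. After adjustment over these 6 tests no p was below 0.96, and 3 libraries against 3 cannot give a p under 0.1. The peaks of the window made up 0.0553% to 0.0644% of each list, and averaged 370 to 424 bp in width. List length differed too, from 81962 to 105132 peaks, with WX-02-23 replicate 1 the longest, and its part in the numbers of the window was not tested beyond the equal-length lists of the closing section.

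Calls of presence or absence between groups were rare in the window. A region was counted as gained where all 3 libraries of the first group held it and none of the second did, and as lost in the opposite case. WX-02-23 against DMSO gave 1 gained region of 76, where 1.77% of all regions were gained, and 0 lost, where 0.739% of all regions were lost. WX-02-43 against DMSO gave 0 gained and 0 lost, beside 0.331% and 0.366% of all regions. WX-02-23 against WX-02-43 gave 1 gained region, beside 1.43%, and 2 lost, beside 0.806%. These counts are so small that they say nothing particular about the locus. A missing peak means only that no call passed the authors' threshold, and summits at background were called from 6 or 7 fragments upward.

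The region gained over DMSO, chr8:128228000-128228437, lay directly beside the strong region starting at 128227224. Its fold was 3.81, 3.41 and 4.80 in WX-02-23, and WX-02-43 replicates 1 and 3 also held it, at 3.34 and 3.28. It stood on 16 to 27 summit fragments in WX-02-23 over a raised background of 3.99 to 5.82. The region gained over WX-02-43, chr8:128105210-128105478, measured 5.28, 5.57 and 6.15 in WX-02-23, and DMSO replicates 2 and 3 held it at 5.28 and 5.82. The regions lost against WX-02-43 were chr8:128064895-128065230, with 4.95, 5.45 and 5.81 in WX-02-43, and chr8:128283165-128283548, with 5.40, 7.13 and 5.81. DMSO held the first of these in replicate 1 at 5.60 and the second in replicates 2 and 3 at 7.19 and 7.17. All 4 had few summit fragments, 10 to 27 where called, beside a median of 29.6 over the 34 shared regions of the window. None of the 4 separated WX-02-23 from both other groups. Against the other 6 libraries together WX-02-23 gained 0 regions of the window, beside 0.9% of all regions, and lost 0, beside 0.364%.

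Of the 42 regions missing from at least 1 library, 17 were held by 1 group alone. WX-02-23 alone held 9 of them, of which 6 were in a single library and 3 in replicates 1 and 3, which makes 11.8% of the 76 regions beside 9.8% of all regions. WX-02-43 alone held 6 (7.89% beside 5.18%) and DMSO alone held 2 (2.63% beside 5.38%), each in a single library. The 3 found in a pair of WX-02-23 libraries were chr8:128113834-128114276, at 5.17 and 5.22 fold, chr8:128201969-128202269, at 6.44 and 7.15, and chr8:129209485-129209736, at 5.31 and 5.60. WX-02-23 replicate 2, with 92296 peaks and the lowest background of 1.0 fragments, held none of these 3.

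**Figure D3:**
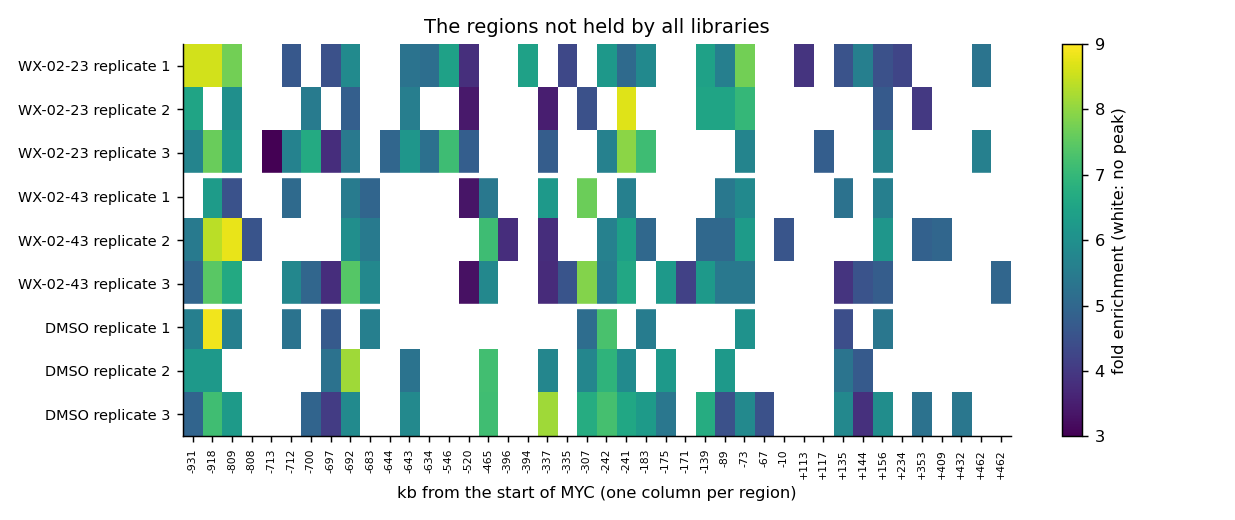
The 42 regions not held by all 9 libraries, 1 column each in order along the chromosome and labelled by kb from the start of MYC, with 1 row per library. Colour gives fold enrichment and white means no peak; no column is filled for 1 group and empty for both others.

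Strength was then compared among regions held by all libraries of a pair of groups. Folds are the authors' own values, set within a library, so they are placed side by side and not tested. A region is called higher where all 3 folds of the first group exceeded all 3 of the second, and lower in the opposite case. In bulk cells, a lower fold cannot be told apart as fewer cells with the site open or a less open site in each cell.

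WX-02-23 was first set against its vehicle. Of 35 regions compared, 5 were higher (14.3%, where 7.71% of all regions compared were higher) and 6 were lower (17.1%, where 7.77% were lower). The median log2 difference of the 35 was -0.04, beside 0.00 over all regions compared, and single regions ran from -0.65 to 0.50. Before MYC, 4 of 19 were higher and 3 lower, and after MYC 1 of 14 was higher and 3 lower. The calls thus pointed both ways on both sides of the gene. With each fold divided by its library's median over the regions held by all 9 libraries (scaled folds), 3 were higher (7.24% of all regions) and 5 lower (8.47%). By −log10 q, 5 were higher (6.09%) and 6 lower (6.6%), and by summit fragments scaled in the same way 6 were higher (10.7%) and 8 lower (9.2%).

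**Figure D4:**
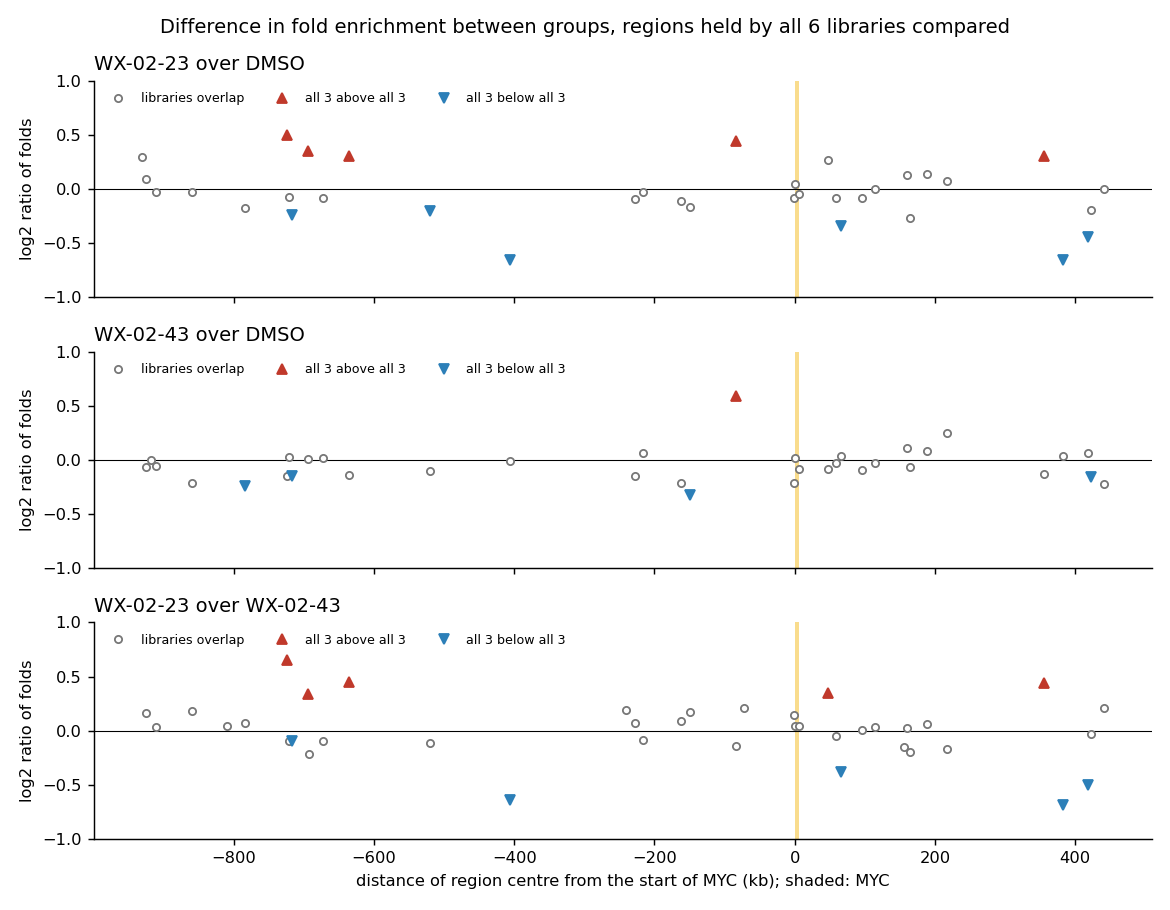
Log2 ratio of fold enrichment (vertical axis, mean of log2 folds of the first group minus that of the second) by kb from the start of MYC, for WX-02-23 over DMSO, WX-02-43 over DMSO and WX-02-23 over WX-02-43. Upward triangles are regions where all 3 libraries of the first group lay above all 3 of the second, downward triangles the opposite, and open circles regions whose libraries overlap; the strip marks MYC, where both regions overlap in every pair.

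Among the lower regions, chr8:128342340-128343025 lay 405.3 kb before MYC. It measured 6.01, 5.99 and 6.67 in WX-02-23, 9.82, 9.54 and 9.59 in WX-02-43, and 8.88, 10.2 and 10.1 in DMSO. All WX-02-23 libraries lay below the 6 others, which overlapped each other, and the mean fold was 0.639 times that of DMSO. The strongest summits spread over 340 bp between libraries, so positions were mixed here too. WX-02-23 replicate 1 held separate peaks at 128342356-128342773 and 128342857-128343006. Summit fragments showed the same layout, with 13, 11 and 13 in WX-02-23, 24, 22 and 25 in WX-02-43, and 20, 21 and 23 in DMSO. These counts are low enough for counting error to be a sizeable part of each.

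After MYC, chr8:129129761-129130398 (382.1 kb) had a ratio of 0.637 to DMSO. Its fold was 5.15, 5.49 and 4.29 in WX-02-23, 7.29, 9.29 and 7.45 in WX-02-43, and 8.06, 6.51 and 8.88 in DMSO. The summit held 8 to 11 fragments in WX-02-23, 18 to 25 in WX-02-43 and 14 to 20 in DMSO. Farther on, chr8:129165251-129165700 (417.5 kb) measured 6.03, 6.77 and 5.31 in WX-02-23, 9.85, 8.17 and 7.63 in WX-02-43, and 8.04, 6.94 and 9.63 in DMSO. Both regions were thus lower with WX-02-23 than in every other library, while WX-02-43 overlapped DMSO. The strong region chr8:129103226-129103706, 355.5 kb after the start of MYC and on the near side of both, went the other way. It had 14.0, 12.7 and 14.0 in WX-02-23, 8.83, 11.3 and 9.95 in WX-02-43, and 9.33, 12.6 and 11.0 in DMSO, with WX-02-23 replicate 2 barely above DMSO replicate 2.

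On the PVT1 side close to MYC, chr8:128812940-128814154 (65.5 kb) held a pair of neighbouring summits in 8 of 9 libraries. At the stronger summit of each library, fold was 6.19, 6.18 and 6.18 in WX-02-23, 9.72, 7.51 and 7.17 in WX-02-43, and 7.50, 6.55 and 9.74 in DMSO. WX-02-23 lay below all others, and the mean was 0.780 times that of DMSO. That comparison mixes positions, since the stronger summit was the far one in WX-02-23 replicates 2 and 3 and the nearer one elsewhere. The difference sat in the summit nearer MYC, where peaks reached 6.19, 3.98 and 5.74 in WX-02-23, 9.72, 7.51 and 7.17 in WX-02-43, and 7.50, 6.55 and 9.74 in DMSO. At the far summit, WX-02-23 had 5.91, 6.18 and 6.18 and WX-02-43 had 4.73, 4.99 and 5.96, while DMSO had 5.63 and 5.24 in replicates 2 and 3 and no separate peak in replicate 1.

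Of the 5 regions higher with WX-02-23 than in DMSO, 3 lay 635.4 to 724.1 kb before MYC, and chr8:128030723-128031438 in the same stretch was lower. At chr8:128023645-128024059, fold was 6.53, 6.13 and 8.25 in WX-02-23, 4.82, 5.00 and 3.53 in WX-02-43, and 5.89, 3.99 and 4.94 in DMSO. At chr8:128054012-128054461 it was 7.22, 7.05 and 7.71 in WX-02-23, 6.56, 5.39 and 5.51 in WX-02-43, and 5.75, 6.21 and 5.33 in DMSO. Each put WX-02-23 above all 6 others, with mean ratios to DMSO of 1.41 and 1.27. The lower region, chr8:128030723-128031438, measured 7.78, 8.18 and 8.36 in WX-02-23, 8.58, 8.71 and 8.69 in WX-02-43, and 9.38, 9.33 and 10.1 in DMSO, so that all 3 groups stood apart in fold with DMSO on top. Its local background was 5.12 to 7.35 fragments, and its WX-02-23 ratio to DMSO, 0.845, was small.

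The region chr8:128112223-128112932 differed more in fragments than in fold, but its values were read at different positions. The strongest summits lay at 128112487 to 128112492 in WX-02-23 and at 128112359 to 128112374 in DMSO. In WX-02-43 they lay at 128112362 to 128112427. Fold was 9.66, 9.77 and 9.72 in WX-02-23, 6.64, 7.76 and 6.97 in WX-02-43, and 7.42, 9.61 and 6.80 in DMSO, and DMSO replicate 2 came close to the lowest WX-02-23 library. Its summit held 42, 29 and 36 fragments in WX-02-23, 14, 22 and 18 in WX-02-43, and 18, 21 and 16 in DMSO. The ratio of WX-02-23 to DMSO was 1.22 for fold but 1.95 for unscaled fragments, and the local background was also higher, at 2.07 to 3.45 fragments with WX-02-23 against 1.29 to 1.56 in DMSO. The neighbouring peak at 128113834 noted above was called in WX-02-23 replicates 1 and 3 only.

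The other stereoprobe was set against the same vehicle. For WX-02-43 against DMSO, of 35 regions compared, 1 was higher (2.86%, where 2.33% of all regions compared were higher) and 4 were lower (11.4%, where 12.2% were lower), so both shares were near those of all regions. The surplus of lower calls changed with the scale. With scaled folds 2 were higher (6.71% of all regions) and 1 lower (5.49%), and the higher share of all calls over the genome stood at 55%, against 16% with deposited folds. The 4 lower regions started at 127963232, 128030723, 128598153 and 129169545, with ratios of 0.799 to 0.902, and with scaled folds the one starting at 128598153 was left. By −log10 q, 1 was higher (2.28%) and 2 lower (7.84%), and by scaled summit fragments 2 were higher (8.77%) and 0 lower (5.03%). The 4 scales rest on the same peaks and are not separate evidence. The region higher on all 4, chr8:128664292-128664718, lay 83.5 kb before MYC. Its fold was 7.66, 6.99 and 6.67 in WX-02-23, 7.2, 6.71 and 9.96 in WX-02-43, and 4.2, 5.75 and 5.82 in DMSO. DMSO thus lay below all 6 libraries of both compounds, with ratios of 1.35 for WX-02-23 and 1.51 for WX-02-43, on 13 to 23 summit fragments with the compounds and 8 to 12 in DMSO. This comparison and that of WX-02-23 share the same 3 DMSO libraries.

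WX-02-23 against WX-02-43 set the stereoprobes side by side at the same dose and time. Of 39 regions compared, 5 were higher (12.8%, where 16.8% of all regions compared were higher) and 5 were lower (12.8%, where 4.55% were lower). With scaled folds 3 were higher (7.63% of all regions) and 8 lower (10.6% of all regions), and the higher share of all calls over the genome stood at 41.9%, against 78.7% with deposited folds. By −log10 q, 6 were higher (10.5%) and 4 lower (5.26%), and by scaled summit fragments 6 were higher (8.79%) and 8 lower (10.3%). This comparison uses the same 3 WX-02-23 libraries as that with DMSO. Among its calls on deposited folds was chr8:128794494-128795244, the nearest region after MYC at 46.9 kb. At 128794494 fold was 9.24, 11.8 and 9.95 in WX-02-23, 7.27, 8.65 and 8.39 in WX-02-43, and 9.15, 7.03 and 9.63 in DMSO. WX-02-23 exceeded WX-02-43 there by a ratio of 1.28 but overlapped DMSO.

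Regions where WX-02-23 stood apart from all 6 other libraries numbered 9 of the 34 shared by all, a count made after the values were seen. Of these 4 were higher (11.8%, where 4.32% of all shared regions were higher) and 5 lower (14.7%, where 2.62% were lower). With scaled folds 1 was higher (2.75% of all shared regions) and 5 lower (4.26%), and the higher share of all calls over the genome stood at 39.2%, against 62.2% with deposited folds. On that scale the regions starting at 128023645, 128054012 and 128112223 overlapped at least 1 other library. By −log10 q, 4 were higher (3.36%) and 4 lower (2.87%), and by scaled summit fragments 5 were higher (4.89%) and 4 lower (5.01%). The regions starting at 129103226 (higher) and at 128342340, 128812940 and 129129761 (lower) were apart on all 4 scales. These scales rest on the same peaks of the same libraries, so they are not separate evidence. The share of all shared regions apart on all 4 is not given here. At 128812940 the strongest peaks lay at different summits, as described above. Over these 9 regions the strongest summits spread by 74 to 704 bp between libraries, so folds were not all read at the same position. The one starting at 129165251 was apart on 3 of the 4, as were the higher ones starting at 128023645, 128054012 and 128112223. The lower one starting at 128030723 was apart on 2, and overlapped other libraries by −log10 q and by scaled summit fragments. Neither region over the MYC interval was apart in any pair of groups on any of the 4 scales.

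**Figure D5:**
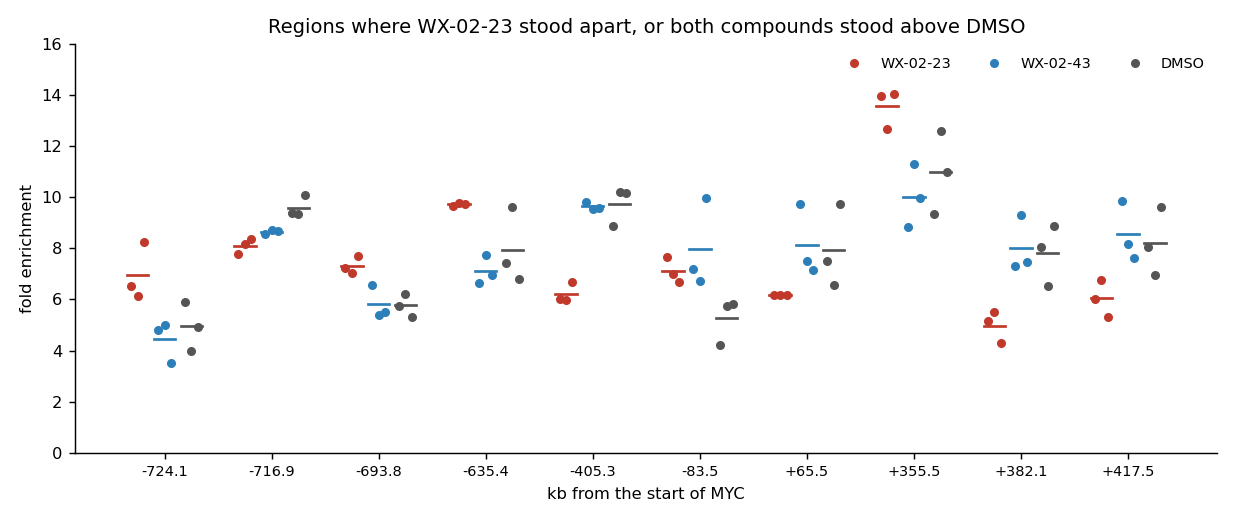
Fold enrichment (vertical axis) of the 9 shared regions where WX-02-23 lay above or below all 6 other libraries, and of the region 83.5 kb before MYC where both compounds lay above DMSO, in order along the chromosome and labelled by kb from the start of MYC. Points are libraries and bars group means (n = 3 each). WX-02-23 is lowest at -716.9, -405.3, +65.5, +382.1 and +417.5 kb and highest at -724.1, -693.8, -635.4 and +355.5 kb. At +65.5 kb the points of WX-02-23 replicates 2 and 3 come from the far summit and the others from the nearer one. At -635.4 kb the WX-02-23 summits also lay apart from those of both other groups.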

How the data were processed

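ATAC-seq was done on 9 libraries of 22Rv1 cells in 3 groups of 3. Per the submitters' processing notes, Bowtie2 aligned the reads (hg19) and MACS2 called the peaks. For versions, settings, transposase shift, duplicates and controls the answer is "not given in the sources used here". Every deposited list covers 1 library, with nothing pooled. Per the file's columns, the authors' deposited lists give each peak a score, a fold enrichment (a ratio to the local background), a −log10 p and a −log10 q. The deposited score repeats the −log10 q and was not used.

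Peaks on chromosomes 1 to 22 and X were merged with 1 bp of overlap. A library holds a region through any overlapping peak, and its strongest peak gives the fold. Summit fragments and local background were solved from fold and p under the MACS2 Poisson formula, within 0.002 of the deposited −log10 p for 100% of summits. Fold was taken as summit fragments plus 1 over background plus 1, so it is below the plain ratio of these values. They are units that MACS2 stacked, reads or pairs, and PCR copies may be among them. The background of 1.0 to 1.41 fragments describes depth, and read totals were not used here. Lists shared at most 0.12% of intervals, so none was a copy.

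The members and lists were chosen with earlier results of these data known. Regions named are those at and beside MYC, the 8 strongest, the 3 widest, all gained or lost, and for each pair and direction the 5 with the largest ratio among those apart. Peak number and covered length in the window were tested by an exact two-sided permutation test over 20 labelings, with Benjamini-Hochberg adjustment over 6 tests. The 90% intervals hold the shifts that this test does not reject. Counting functions were tested on simulated data. Alternatives were a −log10 q of at least 5, lists cut to 81962 peaks (equal-length), 50% of a region covered, scaled folds, −log10 q as the measure, a replicate block, and leaving out each library in turn. The comparison with the other 6 libraries and the scaled summit fragments were added after the data were seen. Python 3.11.15, numpy 2.4.6, pandas 2.3.3, scipy 1.17.1 and matplotlib 3.10.9 were used.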

Additional observations from a re-analysis of the deposited data

How the results depend on the processing

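Leaving out libraries aside, 36 of 60 alternative values did not reverse the sign of a window difference or stayed within 1.5 times a count. Some of these could not change. Differences under a replicate block equal the plain ones by construction, and the peak difference of 0 between the compounds has no sign to reverse. The number of unchanged values is therefore no measure of robustness. The lowest summits called where the local background was at its commonest level held 6 or 7 fragments in all. The cause of the moves below was not tested, except that stricter or equal-length lists hold fewer peaks by construction. No test of the window passed under any setting, but this was fixed in advance, since none of these tests can give a p under 0.1. In equal-length lists the difference in peaks of WX-02-23 and DMSO was -0.33, and covered length differed by -0.26 kb (WX-02-23 against DMSO), -0.21 kb (WX-02-43 against DMSO) and -0.05 kb (WX-02-23 against WX-02-43). At a −log10 q of at least 5, covered length of WX-02-43 minus DMSO was -0.31 kb. Without each library, peak differences ranged between 0.83 and 7.33 (WX-02-23 against DMSO), 1.83 and 7.17 (WX-02-43 against DMSO) and -3.17 and 3.33 (WX-02-23 against WX-02-43). Covered kb ranged, in that order, between -0.91 and 2.36, -1.12 and 2.14, and -1.11 and 1.52, and the lowest values came without DMSO replicate 1 (both compounds against DMSO) and without WX-02-23 replicate 1 (the compounds).

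Same-numbered libraries did not pair: their deviations correlated from -0.12 to 0.14. With the number as a replicate block, the differences are unchanged by construction and only the p can move. The peak differences were 4, 4 and 0 in the same order, with paired exact p of 0.75, 0.25 and 1. Covered length gave 0.56, 0.35 and 0.22 kb, with 1, 0.5 and 1 by the same test. This test cannot give a p under 0.25.

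For WX-02-23 against DMSO, gained and lost regions were 0 and 1 at the stricter threshold and 0 and 2 in equal-length lists. Against WX-02-43, lost regions were 1 at the stricter threshold, gained regions 0 in equal-length lists, and with 50% of a region covered 2 were gained and 1 lost. Without each library, WX-02-23 gained between 1 and 4 regions and lost between 0 and 2 relative to DMSO, gained between 1 and 4 and lost 2 relative to WX-02-43, and WX-02-43 gained and lost between 0 and 1 each relative to DMSO. The count of 4 arose without WX-02-23 replicate 2, and the 2 lost relative to DMSO arose without DMSO replicate 1. Shares over all regions under these settings are not given here, so the counts are no result about the locus.

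With scaled folds, higher and lower regions numbered 3 and 5 (WX-02-23 against DMSO), 2 and 1 (WX-02-43 against DMSO) and 3 and 8 (WX-02-23 against WX-02-43). By −log10 q, 2 were lower for WX-02-43 against DMSO. At a −log10 q of at least 5, 3 were higher for WX-02-23 and 0 for WX-02-43 against DMSO. Scaled summit fragments gave 2 higher and 0 lower for WX-02-43 against DMSO and 8 lower for WX-02-23 against WX-02-43. Fewer libraries have to stand apart when 1 is left out. Higher and lower counts then ran from 5 to 8 and 7 to 9 (WX-02-23 against DMSO) and from 1 to 3 and 5 to 8 (WX-02-43 against DMSO). Between the compounds they ran from 7 to 10 and 5 to 10. Shares over all regions are not given for the stricter threshold or without each library, so those counts are no result about the locus. The highest came without DMSO replicate 2 (8 higher, WX-02-23 against DMSO), without WX-02-43 replicate 1 or 2 (3 higher) and WX-02-43 or DMSO replicate 2 (8 lower) for WX-02-43 against DMSO, and between the compounds without replicate 1 of WX-02-23 or replicate 2 of WX-02-43 (10 higher) and without replicate 1 of WX-02-43 (10 lower).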
